A study of Homo sapiens with 12 samples.

Results

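The genes described are 41 genes of intraflagellar transport and the primary cilium. They were chosen by symbol from general knowledge of the pathway, with earlier results of these data already known. Each was matched to an Ensembl identifier in a gene-level count table of 62754 identifiers. They comprise 11 subunits of the IFT-B train, 6 subunits of the IFT-A train, 9 genes of the BBSome and its assembly and recruitment (BBS genes), 7 motor and cargo genes, 5 transition zone genes and 3 ciliogenic transcription factors. RNA was measured in a subclonal derivative of PC9, a lung adenocarcinoma cell line of human origin that carries an activating EGFR mutation. There were 4 groups of 3 libraries: TDP1 WT cells left untreated (WT), TDP1 WT cells kept for 7 days with erlotinib, an EGFR kinase inhibitor, at 1 µM (DTC, named drug-tolerant cells), TDP1 WT cells kept with that dose for 28 days (DTEC, named drug-tolerant expanded cells), and TDP1 KO cells of the line KO2, also untreated (KO). TDP1 encodes a phosphodiesterase that repairs trapped topoisomerase 1 on DNA. The cultures of a group were split from a shared flask and then grown apart, so p-values measure the spread among those cultures, and the knockout is represented by 1 line. All 12 libraries carry the same batch label.

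The primary cilium is a single antenna-like extension of the cell membrane, built on a centriole and dismantled before cell division. Its parts are carried to the tip by the IFT-B train with kinesin-2 motors and back to the base by the IFT-A train with the dynein-2 motor, while the BBSome moves membrane receptors and the transition zone forms the gate at the base. RFX factors bind X-box motifs in the promoters of many of these genes, and FOXJ1 drives the motile cilia of airway epithelium. Cell cultures that leave the cell cycle are known to form primary cilia more often than dividing ones; cilia themselves were not measured here.

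Promoters of the members are shown first because RFX2 and RFX3 are themselves members. RefSeq promoters on GRCh38.p14, 250 bases before to 50 bases after a transcript start, were found for 35 members, with 41 promoters in all. BBS9, FOXJ1, IFT22, RFX2, TCTN2 and WDR35 had no entry. Each promoter was searched on both strands for the X-box arm GTTGCC and for full X-boxes, which join GTTNCC to GGNAAC through 1, 2 or 3 central bases. A full X-box that begins with GTTGCC also counts as holding the arm. The arm was present in 18 of the 41 member promoters, or 43.9%, and in 12.2% of all 35116 promoters of the same length. A full X-box of any of the 3 spacings was present in 3 member promoters, 7.32%, against 0.718% of all promoters. The 3 were those of ARL6, with GTTGCCAAGGGAAC at bases -24 to -11 from the start, IFT122, with GTTGCCAGGGGTAAC at bases -12 to 2, and TCTN1, with GTTGCCGGGCAAC at bases 0 to 12. The windows below, each 60 bases long and written 5′ to 3′ on the strand of the gene, show the ARL6 match and 6 arms in members that rose after 28 days, with the match in capitals; GGCAAC is the arm on the other strand.
ARL6 (chr3:97764698-97764757, plus strand): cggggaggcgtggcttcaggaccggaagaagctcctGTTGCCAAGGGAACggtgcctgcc
DYNC2H1 (chr11:103109348-103109407, plus strand): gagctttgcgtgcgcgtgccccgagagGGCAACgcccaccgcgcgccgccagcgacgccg
DYNC2LI1 (chr2:43773979-43774038, plus strand): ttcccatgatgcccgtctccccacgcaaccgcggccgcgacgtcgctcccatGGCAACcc
IFT46 (chr11:118566095-118566154, minus strand): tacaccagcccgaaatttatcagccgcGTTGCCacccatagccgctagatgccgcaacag
IFT74 (chr9:26956352-26956411, plus strand): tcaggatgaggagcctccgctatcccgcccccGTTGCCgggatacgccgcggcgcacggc
TULP3 (chr12:2890824-2890883, plus strand): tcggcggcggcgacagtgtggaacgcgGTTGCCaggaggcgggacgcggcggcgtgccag
MKS1 (chr17:58219257-58219316, minus strand): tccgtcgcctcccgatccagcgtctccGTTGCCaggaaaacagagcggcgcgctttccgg
A match describes letters in a window and says nothing of binding in these cells.

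Library totals ran from 25572691 to 38373679 estimated counts. TDP1 stood at 28.1, 25.1 and 25.8 CPM (the count scaled to a common effective library total) in WT and at 10.1, 11.3 and 10.98 CPM in KO, a log2 difference of -1.29 (adjusted p = 1.302e-05), so its transcript was reduced but still present in the line labelled KO. The epithelial markers EPCAM, KRT8, KRT18, KRT19 and CDH1 were abundant in every library, but their sum was lower in DTC, at 4465 to 5022 CPM, than in WT, at 8862 to 9330 CPM, and 4 of 5 were called lower; it was 7480 to 9812 CPM in DTEC. Of the leukocyte markers, LYZ rose at 7 days from at most 0.317 CPM in WT to between 1.15 and 1.65 CPM in DTC, and CD14 from at most 0.299 CPM to between 0.541 and 0.909 CPM, while PTPRC and CD3E stayed under 0.2 CPM in every library. The 4 endothelial markers summed to 58.5 to 61.4 CPM in WT, 42.1 to 50.1 CPM in DTC and 121.8 to 141.6 CPM in DTEC. Of these, PECAM1 fell by 1.87 on the log2 scale at 7 days and rose by 1.52 at 28 days, VWF rose from at most 0.202 CPM to at most 1.85 and 0.522 CPM, CDH5 was not called, and KDR, under 1 CPM in every library, was too low to be tested. Of the fibroblast markers, COL1A2, COL3A1 and DCN had at most 2 counts in any library, while COL1A1 rose from a mean of 8.3 CPM in WT to 55.7 CPM in DTC. The part of these marker shifts in the ciliary changes was not tested.

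Tests were made with edgeR's quasi-likelihood test in 1 fit of all 12 libraries over 17115 genes, and a gene was called at a Benjamini-Hochberg adjusted p under 0.05. Of the 41 members, 40 passed the filter on low counts; KIF17, an accessory ciliary kinesin, had 0 to 12 counts per library and was not tested. FOXJ1 is a near-floor gene outside DTEC, with 1, 7 and 3 counts in WT and 0, 9 and 4 in DTC. Per transcript length, the members were expressed in untreated cells over a wide range. In TPM, which divides each count by the summed exon length before scaling, the WT means were highest for IFT57 at 84.3, IFT52 at 81.5 and KIF3B at 75.1, and TULP3 followed at 38.5. At the other end stood RFX3 at 1.02, CC2D2A at 0.822, BBS5 at 0.804 and FOXJ1 at 0.155 TPM.

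After 7 days of erlotinib the called ciliary genes went both ways, as did all genes, and a smaller share of them was called. The chaperonin-like BBS12, the BBSome subunits BBS4 and BBS2, and the train subunits IFT20, IFT46, IFT140 and IFT43 rose, whereas the IFT-A subunit WDR35, the kinesin-2 motor KIF3B and the transition zone gene TCTN2 fell. Of 40 tested members 19 were called, 13 higher and 6 lower, or 47.5%; over all 17115 genes 67.3% were called, 34% higher and 33.3% lower. The median log2 fold change of the members was 0.14, beside 0.06 over all tested genes, and the range ran from -1.09 to 1.47. By role, the calls were 3 higher and 0 lower of 11 IFT-B genes, 3 and 1 of 6 IFT-A genes, 5 and 0 of 9 BBS genes, 1 and 1 of 6 motor and cargo genes, 1 and 2 of 5 transition zone genes, and 0 and 2 of 3 transcription factors. These splits depend on scaling. With total counts alone, which moved the median of all genes up by 0.35, 19 members were called higher and 2 lower. With upper quartile scaling the split was 19 and 3. Of the calls over all genes in those settings, 68.4% and 65% were higher. Without DTC replicate 1, 18 members were called higher and 10 lower. The change was at least 2-fold for 3 members that rose and 1 that fell, with 22.3% and 13.9% of all genes past those thresholds.

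Among the BBS genes the largest rises were those of BBS12 and BBS4. BBS12, a subunit of the chaperonin complex that assembles the BBSome (chr4:122732702-122744943 on GRCh38), had 3.35, 3.04 and 4.21 CPM in WT and 6.96, 12.3 and 10.0 CPM in DTC. All DTC libraries lay above all WT libraries, with a log2 fold change of 1.47 (SE 0.205, adjusted p = 1.93e-05). BBS4 measured 8.87, 8.74 and 7.93 CPM in WT and 17.7, 21.0 and 22.5 CPM in DTC, a rise of 1.26 on the log2 scale (SE 0.122, adjusted p = 4.86e-07). For BBS2, the levels were 24.8, 20.9 and 24.3 CPM in WT and 45.3, 44.3 and 43.7 CPM in DTC, close together within each group (log2 0.93, SE 0.09, adjusted p = 4.89e-07). BBS9 rose as well, by 0.60, and so did BBS1, by 0.27. The BBS1 rise was called in 9 of 12 alternative analyses and was lost, among others, without WT replicate 1. BBS5, BBS7, BBS10 and ARL6, the small GTPase that brings the BBSome to membranes, were not called, at log2 values between -0.27 and 0.27.

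In the trains, IFT20, the IFT-B subunit that also sits at the Golgi, gave 14.1, 13.2 and 13.4 CPM in WT and 19.6, 41.2 and 34.4 CPM in DTC (chr17:28328325-28335489). It shares 361 exon bases with TMEM97 on the opposite strand, and strand use in the counting is not stated. DTC replicate 1 stood far below the other DTC libraries but above every WT library, and the log2 change of 1.23 (SE 0.194, adjusted p = 6.59e-05) was 1.51 without it. The IFT-A subunit IFT43 had the same arrangement, with 20.5, 19.1 and 19.0 CPM in WT and 20.7, 43.9 and 35.6 CPM in DTC (log2 0.77, SE 0.194, adjusted p = 0.0029; 1.06 without DTC replicate 1). IFT46, an IFT-B core subunit, rose from 15.5, 15.6 and 16.3 CPM to 24.4, 28.6 and 28.9 CPM (log2 0.79, adjusted p = 7.06e-05). IFT140, a core subunit of IFT-A, rose from 8.96, 8.67 and 8.34 CPM to 14.2, 15.6 and 15.5 CPM (log2 0.80, SE 0.12, adjusted p = 3.71e-05). WDR35, which belongs to the same IFT-A complex, went the other way: 39.8, 39.4 and 39.0 CPM in WT against 20.2, 17.4 and 17.8 CPM in DTC. Its log2 change was -1.09 (SE 0.0948, adjusted p = 1.59e-07), 2.13-fold lower, with no overlap between groups. IFT80, at 0.41, and WDR19, at 0.40, were also called higher. The remaining 8 IFT-B and 2 IFT-A genes were not called. In IFT-B, IFT81, IFT22, IFT27 and IFT57 read 0.29, 0.27, 0.25 and 0.14. IFT52, IFT74, IFT172 and IFT88 read -0.12, -0.17, -0.20 and -0.23. In IFT-A, TTC21B and IFT122 read -0.09 and -0.21.

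KIF3B, the motor subunit that pairs with KIF3A in kinesin-2, had 136, 130 and 130 CPM in WT and 85.8, 69.8 and 71.0 CPM in DTC. The groups did not overlap, and the log2 change was -0.81 (SE 0.0941, adjusted p = 3.25e-06). KIF3A itself was not called at 7 days, at -0.24 (adjusted p = 0.149), with DTC replicate 1 at 28.8 CPM, above every WT library, and the other DTC libraries at 18.5 and 21.4 CPM. The dynein-2 light intermediate chain DYNC2LI1 rose by 0.70 (adjusted p = 0.000229), while the dynein-2 heavy chain DYNC2H1 read 17.1, 9.8 and 9.76 CPM in DTC against 10.5 to 11.5 CPM in WT and was not called. At the transition zone, CC2D2A rose by 0.71 (adjusted p = 0.012). TCTN2, a tectonic protein of the same gate, fell from 14.2, 15.1 and 12.7 CPM to 10.2, 7.98 and 9.09 CPM (log2 -0.62, adjusted p = 0.000389; adjusted p = 0.0602 with total counts alone). MKS1 was called lower at -0.25 (adjusted p = 0.0247), a call that was kept in 2 of 12 alternatives and whose sign turned to 0.11 with total counts alone and to 0.04 with upper quartile scaling.

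None of the ciliogenic factors was called higher at 7 days. RFX2 had 4.30, 6.48 and 7.24 CPM in WT and 3.01, 3.27 and 4.54 CPM in DTC, so the highest DTC library overlapped the lowest WT library, and the log2 change was -0.73 (SE 0.198, adjusted p = 0.00459). That call was lost with total counts alone and with upper quartile scaling. RFX3 measured 3.17, 3.58 and 3.14 CPM in WT and 2.97, 2.12 and 1.96 CPM in DTC (log2 -0.49, SE 0.198, adjusted p = 0.0414), and its call was kept in 2 of 12 alternatives. FOXJ1, at 0.0299, 0.236 and 0.0865 CPM in WT and 0, 0.265 and 0.117 CPM in DTC, was not called (adjusted p = 0.86), and its log2 value of 0.20 turned negative without WT replicate 1 or DTC replicate 2.

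**Figure D1:**
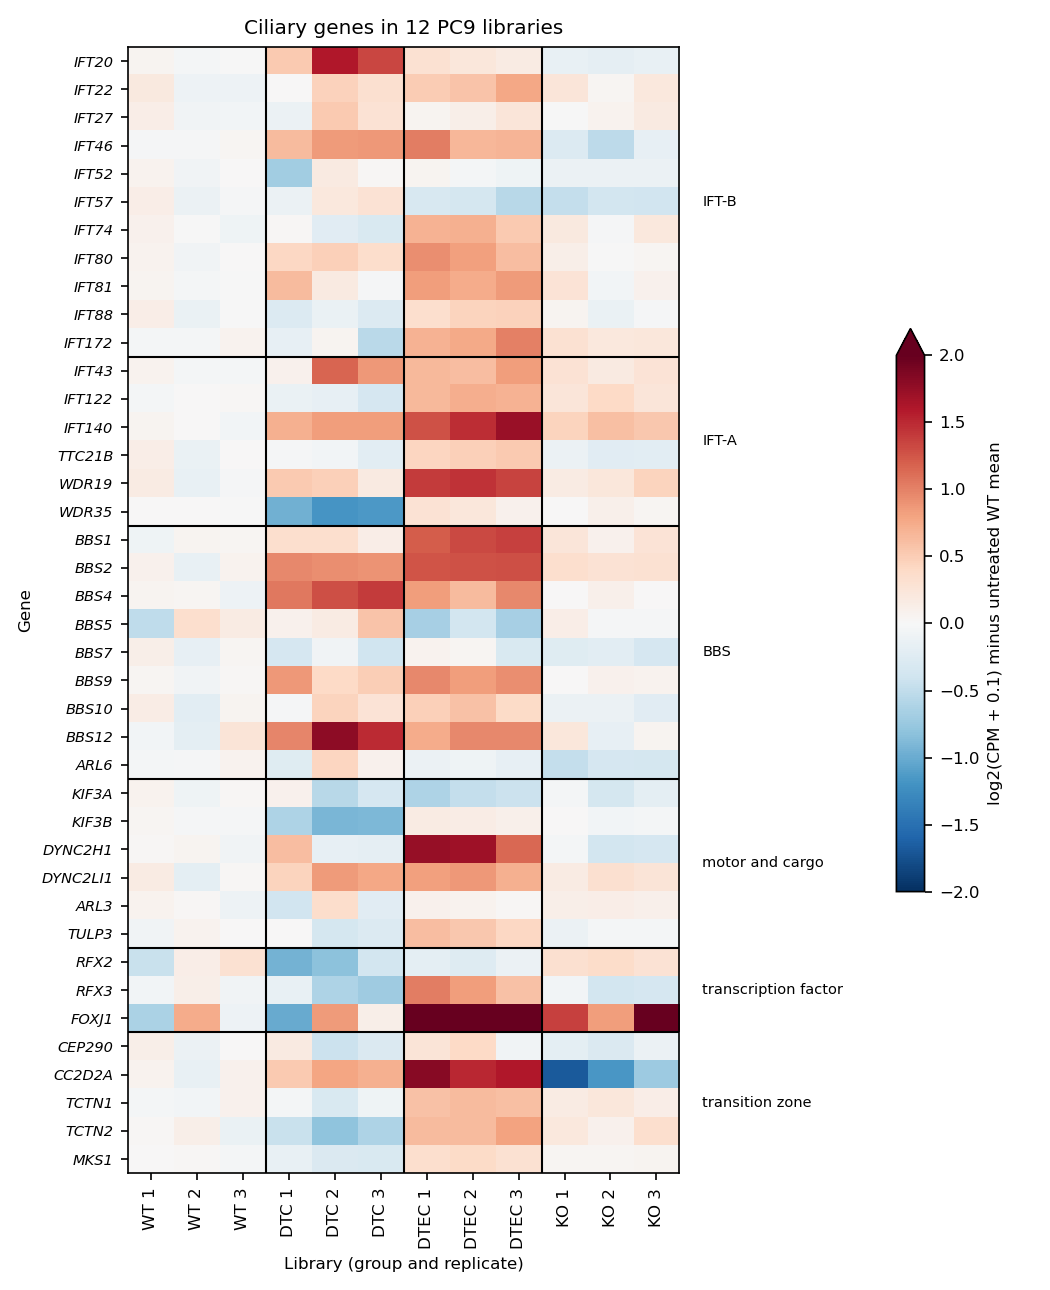
Level of the 40 tested members (rows, grouped by role) in each of the 12 libraries (columns), coloured by log2(CPM + 0.1) minus the mean of the 3 WT libraries, with the colour scale ending at -2.0 and 2.0. Most rows are red in the 3 DTEC columns, whereas the DTC columns hold red rows such as BBS4, BBS12 and IFT20 beside blue rows such as WDR35 and KIF3B.

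After 28 days the picture was more one-sided: 27 of 40 tested members were higher than in WT and 2 were lower. The calls covered both trains, the BBSome, dynein-2, the transition zone and the factors RFX3 and FOXJ1. Together they made 72.5% of the tested members, where 52.3% of all genes were called, 26% higher and 26.3% lower. The median log2 fold change was 0.63 for the members and 0.02 for all tested genes. By role, 7 of 11 IFT-B genes rose and 1 fell, 5 of 6 IFT-A genes rose, 6 of 9 BBS genes rose, 3 of 6 motor and cargo genes rose and 1 fell, 4 of 5 transition zone genes rose and 2 of 3 transcription factors rose. At least 2-fold higher were 7 members, FOXJ1, CC2D2A, DYNC2H1, IFT140, WDR19, BBS1 and BBS2, and 0 were 2-fold lower, where 13.2% and 6.7% of all genes passed those thresholds. Without FOXJ1, which entered the test through its DTEC level, 26 of 39 members rose and 2 fell, 6 rose at least 2-fold, the median was 0.62, and of RFX2 and RFX3 1 rose. The DTC and DTEC comparisons share the WT libraries. With total counts alone the split was 29 higher and 0 lower, and with upper quartile scaling 29 and 2. Of the calls over all genes in those settings, 63.7% and 59.1% were higher.

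IFT140 rose further than at 7 days, to 21.2, 24.3 and 28.8 CPM (log2 1.52 against WT, SE 0.12, adjusted p = 2.28e-07). WDR19, its partner in the IFT-A core, had 17.1, 13.8 and 15.03 CPM in WT, 21.9, 21.4 and 17.3 CPM in DTC and 40.5, 41.6 and 39.1 CPM in DTEC. The 3 DTEC libraries agreed within a narrow range far above all others, a log2 change of 1.398 (SE 0.123, adjusted p = 5.44e-07). IFT122 and IFT43 rose by 0.69 and 0.71, and TTC21B by 0.48. WDR35 was back at 48.2, 46.3 and 41.9 CPM, above each WT library, but at 0.21 it was not called (adjusted p = 0.0744). Summed over the 6 IFT-A genes, the level was 114.9 to 120.6 CPM in WT, 108.6 to 129.2 CPM in DTC and 192.8 to 199.1 CPM in DTEC.

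The 7 IFT-B genes that rose did so by 0.42 to 0.83. The largest were IFT172, the peripheral subunit that acts at the tip, from 19.4, 19.3 and 20.7 CPM in WT to 32.2, 33.4 and 39.96 CPM, and the tubulin-binding IFT81, from 9.11, 8.6 and 8.71 CPM to 15.9, 14.8 and 16.0 CPM. IFT80 reached 55.7, 51.6 and 44.5 CPM from 30.4, 27.7 and 29.1 CPM, IFT46 rose by 0.80, IFT74, which binds tubulin together with IFT81, by 0.65, IFT22 by 0.62 and IFT88 by 0.42. IFT57 fell instead, from 101, 84.4 and 89.8 CPM to 73.2, 71.4 and 62.1 CPM (log2 -0.41, adjusted p = 0.00843), a call that was lost with total counts alone. IFT20 had returned to 16.8, 16.0 and 15.3 CPM, a log2 value of 0.24 (adjusted p = 0.316). IFT27 and IFT52 were not called, at 0.14 and -0.02.

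BBS1, a core BBSome subunit, showed the largest change among the BBS genes, with 18.4, 20.4 and 20.2 CPM in WT and 45.6, 49.4 and 51.1 CPM in DTEC (chr11:66510606-66533627; log2 1.31, SE 0.101, adjusted p = 1.7e-07). It shares 759 exon bases with ZDHHC24 on the opposite strand and 3311 with the little expressed AP002748.4 on the same strand. BBS2 reached 56.0, 56.4 and 57.0 CPM, a log2 change of 1.27 (SE 0.0904, adjusted p = 8.26e-08). BBS9 went from 8.51, 7.82 and 8.39 CPM to 16.2, 14.8 and 15.8 CPM (log2 0.92, adjusted p = 3.23e-05). BBS12, at 5.91, 6.88 and 6.93 CPM, was above WT by 0.89 (adjusted p = 0.00226). BBS4 and BBS10 rose by 0.82 and 0.48. BBS5, BBS7 and ARL6 were not called, and BBS5, at 0.687 to 1.32 CPM in WT, read -0.68 (adjusted p = 0.0805).

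DYNC2H1, the motor of retrograde transport, had the largest change among the motors (chr11:103109410-103479863). It measured 11.2, 11.5 and 10.5 CPM in WT and 37.3, 36.0 and 24.6 CPM in DTEC, and although DTEC replicate 3 was lower than the others, it was more than 2-fold above every WT library (log2 1.56, SE 0.211, adjusted p = 3.26e-05). DYNC2LI1 rose by 0.80 and TULP3, the adaptor that links membrane receptors to IFT-A, by 0.52, from 33.5, 36.8 and 35.4 CPM to 53.9, 51.1 and 47.2 CPM. KIF3A fell to 17.6, 19.5 and 20.1 CPM from 28.3, 25.5 and 27.5 CPM (log2 -0.51, adjusted p = 0.00926). This call was lost with total counts alone (adjusted p = 0.0643) and without DTEC replicate 1. KIF3B was back at 142 to 148 CPM and was not called, nor was ARL3, a GTPase that releases lipidated cargo.

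CC2D2A, a transition zone scaffold mutated in Joubert and Meckel syndromes, had 1.88, 1.62 and 1.90 CPM in WT, 2.64, 3.18 and 3.02 CPM in DTC and 6.61, 5.27 and 5.63 CPM in DTEC. These 3 groups did not overlap with one another, and the change at 28 days was 1.69 (SE 0.222, adjusted p = 2.20e-05). TCTN2 rose by 0.69 to 21.7, 21.8 and 24.4 CPM, TCTN1 by 0.61 to 57.7, 59.7 and 58.5 CPM, and MKS1 by 0.35. CEP290, the long linker of the gate, was not called at 0.20.

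RFX3 was called higher at 28 days, with 6.76, 5.92 and 5.00 CPM in DTEC, all above the WT libraries (log2 0.84, SE 0.192, adjusted p = 0.00212). Its opposite call at 7 days was kept in 2 of 12 alternatives. RFX2 had 5.12, 4.89 and 5.39 CPM and was not called (log2 -0.23, adjusted p = 0.349). FOXJ1 rose to 34, 35 and 91 counts, or 1.04, 1.34 and 2.501 CPM (chr17:76136333-76141299). Its fitted log2 change was 3.79 (SE 0.752, adjusted p = 0.000746), and 3.32 without DTEC replicate 3, the highest library. FOXJ1 passed the filter on low counts through its DTEC level, so a difference from the other groups was bound to be seen, and it remained a low transcript at a mean of 2.48 TPM in DTEC.

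The X-box arm was found in the promoters of 16 members, of which 15 were tested, and 12 of these 15 rose at 28 days and 0 fell. Of 19 tested members without one, 11 rose and 2 fell. At 7 days the same groups had 3 higher and 1 lower of 15, and 9 higher and 2 lower of 19. Over all tested genes, 26% were higher and 26.3% lower at 28 days, and 34% and 33.3% at 7 days; the difference between members with and without the arm was not tested. ARL6, whose full X-box is printed above, was not called in any of the 4 comparisons.

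**Figure D2:**
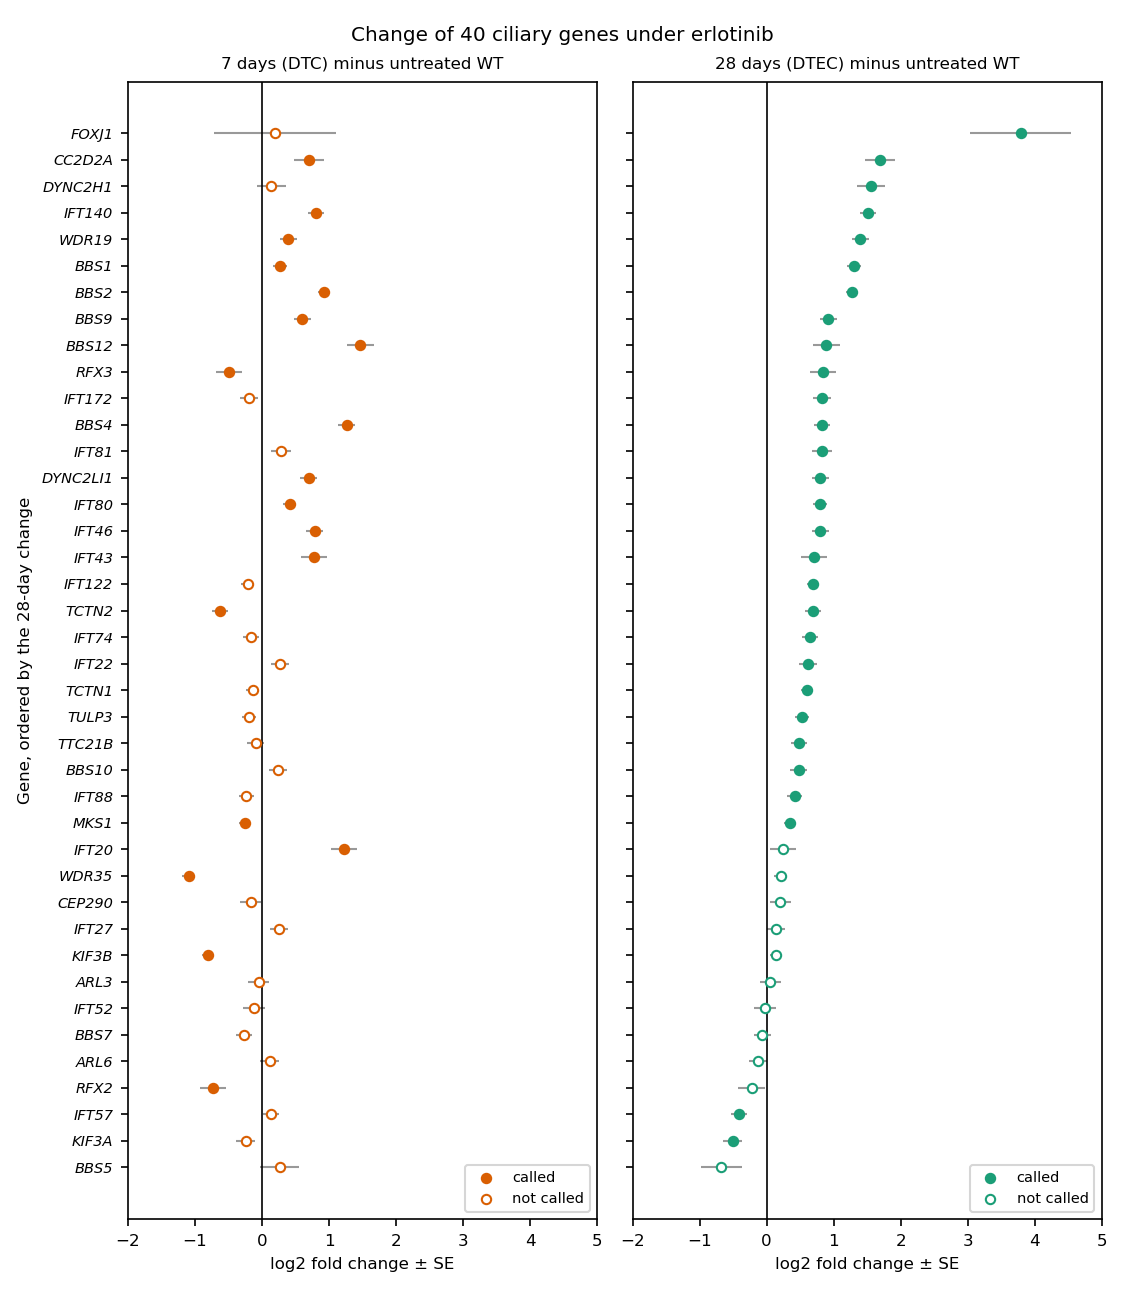
Log2 fold change with its SE (points and bars) of the 40 tested members at 7 days (left) and 28 days (right) against WT, ordered by the change at 28 days; filled points passed adjusted p under 0.05. On the right 27 filled points lie above 0 and 2 below, and on the left 13 above and 6 below.

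**Figure D3:**
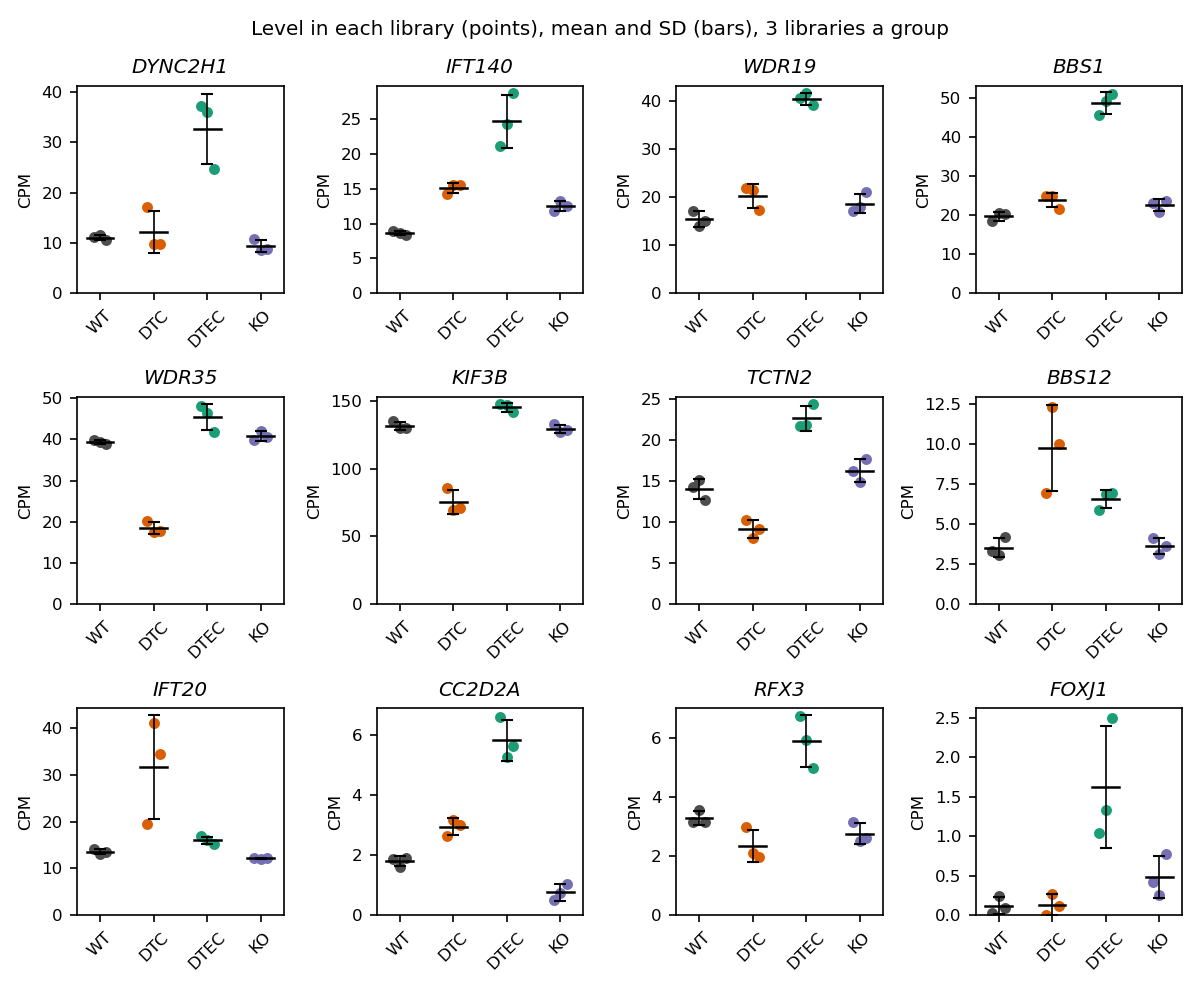
CPM (vertical axes, from 0) of 12 members in each library (points), with the mean and SD of 3 libraries per group (bars), for WT, DTC, DTEC and KO. DYNC2H1, IFT140, WDR19 and BBS1 are highest in DTEC, WDR35, KIF3B and TCTN2 dip in DTC, and BBS12 and IFT20 peak in DTC.

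Between 7 and 28 days, 24 of 40 tested members rose and 5 fell; 55.4% of all genes were called in this comparison, 28.8% higher and 26.6% lower. The members that rose most were FOXJ1, DYNC2H1, RFX3, TCTN2 and WDR35, and those that fell were IFT20, BBS5, BBS12, IFT57 and BBS4. The median was 0.45 beside -0.01 for all genes, and 8 members rose at least 2-fold and 0 fell so far, where 8.1% and 14.3% of all genes did. Without FOXJ1, 23 of 39 rose and 5 fell, with a median of 0.39. All 3 transcription factors, FOXJ1 included, and 5 of 6 IFT-A genes were called higher, as were 6 of 11 IFT-B genes, with 2 lower, and 4 of 5 transition zone genes, whereas the BBS genes had 3 higher and 3 lower. With total counts alone, 18 members were higher and 7 lower, the BBS genes having 1 higher and 4 lower. Upper quartile scaling gave 19 and 7. Of the calls over all genes in those settings, 37.4% and 38.7% were higher. Both drug-treated groups were grown in the same erlotinib concentration. By the labels they differed in time and in name, drug-tolerant against drug-tolerant expanded cells. Time under the drug and expansion of the cells cannot be told apart in this comparison.

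WDR35, at a mean of 18.5 ± 1.503 CPM in DTC and 45.5 ± 3.23 CPM in DTEC (SD, n = 3), rose by 1.301 (SE 0.0951, adjusted p = 7.70e-08). TCTN2 rose from 9.09 ± 1.115 to 22.6 ± 1.54 CPM (log2 1.32, SE 0.121, adjusted p = 7.34e-07), and RFX3 from 2.35 ± 0.544 to 5.89 ± 0.88 CPM (log2 1.33, adjusted p = 5.94e-05). Both were called lower than WT at 7 days and higher at 28 days. The 7-day call was kept in 11 of 12 alternatives for TCTN2 and in 2 of 12 for RFX3. DYNC2H1 rose by 1.42 (SE 0.209, adjusted p = 6.67e-05), and by 1.72 without DTC replicate 1, the DTC library where it was highest. FOXJ1 rose by 3.60 (SE 0.735, adjusted p = 0.00088), but it passed the filter on low counts through its DTEC level. Its difference from DTC was therefore bound to be seen.

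BBS1 (log2 1.03, adjusted p = 1.08e-06), IFT172 (1.03, adjusted p = 2.19e-05) and WDR19 (1.00, adjusted p = 9.41e-06) each had about 2 times the DTC level in DTEC, and CC2D2A rose by 0.99 (adjusted p = 0.0014). KIF3B, named here after its value was seen, rose by 0.95 after its dip. IFT20 fell by 0.99 on the log2 scale (SE 0.192, adjusted p = 0.000627), and the drop was 1.25 without DTC replicate 1. RFX2 was called higher at 0.51 (adjusted p = 0.0432), a call kept in 3 of 12 alternatives. Calls of IFT22, IFT80, IFT81, BBS2, BBS5, BBS9 and BBS12 were also lost in at least 1 alternative, and those of the other 21 members in none.

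**Figure D4:**
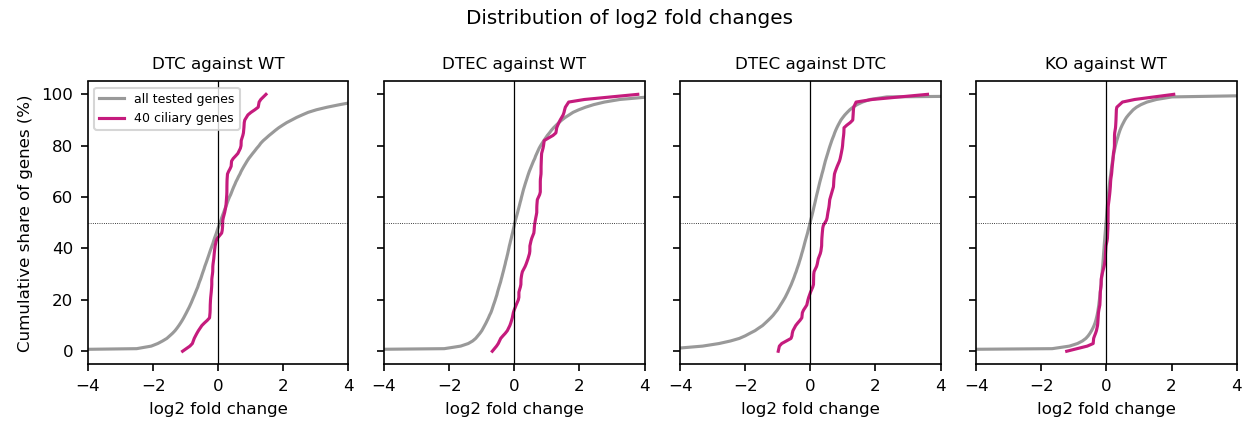
Cumulative share of genes (vertical axis, %) against the log2 fold change (horizontal axis, -4 to 4) for all 17115 tested genes (grey) and the 40 tested ciliary genes (magenta) in the 4 comparisons. The magenta line crosses the 50% level at 0.63 for DTEC against WT and at 0.14 for DTC against WT, while the grey lines cross near 0.

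In the untreated TDP1 KO line the share of ciliary genes called was close to that of all genes. There, 2 of 40 tested members were called, IFT140 higher and CC2D2A lower, or 5%; over all genes 4.31% were called, 2.76% higher and 1.55% lower. The fall of CC2D2A exceeded 2-fold, and 0 members rose so far, where 0.339% and 0.964% of all genes did. The median log2 fold change was 0.05, beside -0.01 for all genes. The KO comparison uses the same WT libraries as the DTC and DTEC comparisons. CC2D2A had 0.491, 0.744 and 1.05 CPM in KO, each below the WT values of 1.62 to 1.90 CPM (log2 -1.22, SE 0.248, adjusted p = 0.012). IFT140 had 11.8, 13.2 and 12.6 CPM in KO, above every WT library (log2 0.53, SE 0.121, adjusted p = 0.0231). IFT140 lost its call on leaving out any 1 of the 6 libraries, with adjusted p up to 0.117. CC2D2A lost its call without WT replicate 1, WT replicate 3, KO replicate 1 or KO replicate 2, with adjusted p up to 0.0541.

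The factors were not called in KO: RFX2 read 0.29 (adjusted p = 0.487), RFX3 -0.26 (adjusted p = 0.567) and FOXJ1 2.07 (adjusted p = 0.187). FOXJ1 had 12, 8 and 28 counts in KO and 1, 7 and 3 in WT, so the lowest KO library was close to the highest WT library. With no filter on low counts it was called, at 2.09 (adjusted p = 0.0148). It was not called with total counts alone, upper quartile scaling or DESeq2. IFT57, at 65.9, 70.5 and 70.3 CPM, lay below all WT libraries at -0.41 but was not called (adjusted p = 0.0642). Such separation was common: of all 17115 tested genes, 3412 lay fully below and 2699 fully above WT in KO. The number of members called in KO depended on the analysis, from 0 to 1 with a library left out to 8 when only the KO and WT libraries were fitted. In that last fit 17.5% of all tested genes were called, beside 4.31% in the main fit.

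Further genes of the cilium were taken from lists that also rest on general knowledge and were also chosen with earlier results of these data known. Between the times 55.4% of all genes were called, 28.8% higher and 26.6% lower, and in KO 4.31%, 2.76% higher and 1.55% lower. Against WT, 67.3% of all genes were called at 7 days and 52.3% at 28 days. The shares called at these times were 73.3% and 53.3% of the other transport genes, 66.7% and 33.3% of the other transition zone genes, 80% and 53.3% of the cilium initiation genes, and 90% and 70% of the restraint and disassembly genes. They were 87.5% and 75% of the ciliary membrane genes, 88.9% and 33.3% of the Hedgehog genes, 80% and 66.7% of the multiciliated cell genes, and 91.7% and 100% of the proliferation genes. Of 15 other transport genes, 5 were called higher and 6 lower at 7 days, and 6 higher and 2 lower at 28 days. DYNC2I2, a dynein-2 intermediate chain, and TTC26, an IFT-B subunit, fell most at 7 days, by 1.43 and 1.19 on the log2 scale. TTC30B, an IFT-B subunit, and LZTFL1, a regulator of BBSome entry, rose most at 28 days, by 1.32 and 1.15. Between the time points 10 were higher and 3 lower, or 86.7% beside 55.4% of all genes, led by LZTFL1 at 1.28 and TRAF3IP1, an IFT-B subunit. In KO edgeR called 0 of 15, with 0 at an unadjusted p under 0.05, and DESeq2 called 0 of 14.

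Of 15 tested other transition zone genes, 4 were higher and 6 lower at 7 days, and 5 were higher and 0 lower at 28 days. TMEM107 was called higher at 7 days, at 0.92, and TMEM107 and TMEM67 rose most at 28 days, at 1.35 and 0.95. Between the time points 10 were higher, including TMEM67 at 1.02 and TMEM231 at 0.92, and 3 lower. The 15 genes of cilium initiation, which prepare the mother centriole, had 3 higher and 9 lower at 7 days, and 6 of each with total counts alone. CEP83, a distal appendage protein, and KIAA0586 fell most, by 1.13 and 1.00. At 28 days 3 were higher and 5 lower, with TTBK2, the kinase that starts ciliogenesis, at 1.11 and the membrane-shaping EHD1 at -0.84. From 7 to 28 days 8 rose and 4 fell, with KIAA0586 at 1.19 and CEP120 at 1.01. In KO edgeR called 0 genes of either list, with 2 transition zone and 3 initiation genes at an unadjusted p under 0.05, and DESeq2 called 0 and 1.

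Of 10 genes that restrain or dismantle the cilium, 3 were higher and 6 lower at 7 days, and 3 higher and 4 lower at 28 days. PLK1, a mitotic kinase, went from a mean of 325 ± 25.5 CPM in WT to 31.7 ± 3.84 CPM in DTC (log2 -3.36, adjusted p = 4.49e-11) and 115 ± 9.26 CPM in DTEC (log2 -1.50, adjusted p = 9.34e-08). NEDD9, the scaffold that activates AURKA at the cilium base, moved oppositely, from 20.2 ± 1.26 CPM to 197 ± 24.5 CPM in DTC (log2 3.28) and 115 ± 19.8 CPM in DTEC (log2 2.51). NEDD9 was also called higher in KO, at 0.99 (adjusted p = 0.000705). Between 7 and 28 days 6 of the 10 rose, led by PLK1 at 1.85 and AURKA at 1.22, and 2 fell. Genes of cell division were mostly lower under erlotinib. Of 12 proliferation genes, 1 was higher and 10 lower at 7 days and 12 were lower at 28 days. Their summed level was 3078 to 3314 CPM in WT, 1075 to 1093 CPM in DTC, 1754 to 1807 CPM in DTEC and 3126 to 3237 CPM in KO. TOP2A and MKI67 fell most at 7 days, by 2.23 and 2.13, and CCNA2 and CCNB1 at 28 days, by 1.47 and 1.22. From 7 to 28 days 8 of the 12 rose, TOP2A by 1.67, and 2 fell, CCNE2 by 1.55. The 41 ciliary genes summed to 857.1 to 921.0 CPM in WT, 867.2 to 960.1 CPM in DTC, 1176 to 1220 CPM in DTEC and 869.5 to 888.1 CPM in KO, so their sum was highest at 28 days while that of the proliferation genes was lowest at 7 days. The part of cell division in the ciliary changes was not tested.

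**Figure D5:**
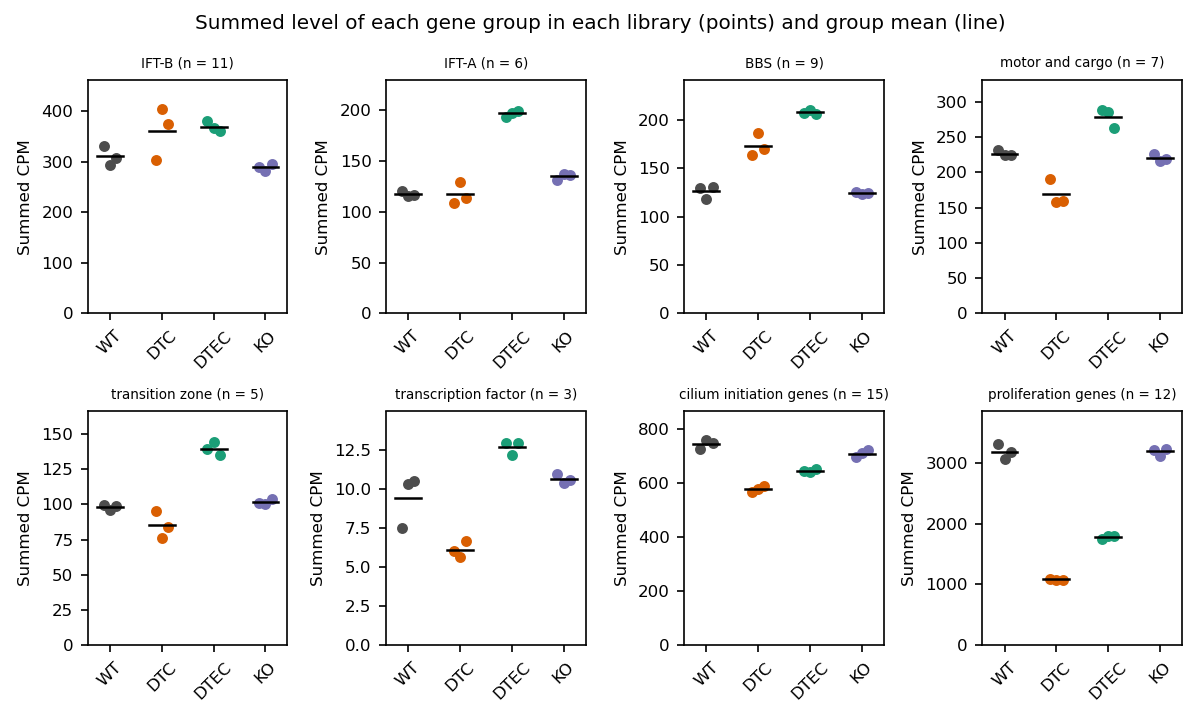
Summed CPM (vertical axes, from 0) of 6 groups of members, of 15 cilium initiation genes and of 12 proliferation genes in each library (points), with the mean of 3 libraries (lines). The IFT-A, BBS, motor and cargo, and transition zone sums are highest in the DTEC libraries, whereas the proliferation sum is 1081 CPM on average in DTC and 1787 CPM in DTEC, both below the WT mean of 3192 CPM.

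Of 8 tested genes of the ciliary membrane, 3 were higher and 4 lower at 7 days, and 2 higher and 4 lower at 28 days. ADCY3, the adenylyl cyclase used as a cilium marker, fell by 2.05 and 1.29 at the respective times, from 143 ± 6.65 CPM in WT. The channel PKD2 rose by 1.31 at 7 days, and the lipid phosphatase INPP5E fell by 1.04 at 28 days. From 7 to 28 days 3 rose and 3 fell, with PDE6D at -0.86 and ADCY3 at 0.76. Of 9 tested Hedgehog genes, whose signal is relayed through the cilium, 4 were higher and 4 lower at 7 days. GLI2 rose from 0.867 ± 0.158 CPM to 11.7 ± 0.875 CPM (log2 3.75, adjusted p = 8.33e-08) and the co-receptor BOC by 1.16. From 7 to 28 days GLI2 changed by -3.07 and BOC by -1.15. At 28 days PTCH1 was higher at 0.64 and KIF7 lower at -0.48, and 2 were called higher and 1 lower in all. In KO, 3 of the 9 were higher and 0 lower, beside 2.76% and 1.55% of all genes. The 3 included GLI2 at 1.52 (adjusted p = 0.0121) and GAS1 at 1.14 (adjusted p = 0.00976). GLI1, the usual transcriptional target of the pathway, had at most 3 counts in any library. Among the other RFX factors, RFX7 fell by 1.76 at 7 days and rose by 1.71 from 7 to 28 days, and RFX5 rose by 0.88 and 0.75 against WT at 7 and 28 days.

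Markers of multiciliated airway cells were examined beside FOXJ1. Of 24 listed, 15 were tested. Of these, 9 were higher and 3 lower at 7 days, and 8 higher and 2 lower at 28 days. In KO 3 were higher and 0 lower, beside 2.76% and 1.55% of all genes. Genes near the floor in WT, such as TPPP3, passed the filter on low counts only through groups where they were high. Their rises were bound to be seen, so the split between higher and lower was partly fixed by the filter. Their summed level, most of it from the tubulin gene TUBB4B, was 925.8 to 1048 CPM in WT, 375.6 to 435.5 CPM in DTC, 366.5 to 567.0 CPM in DTEC and 898.0 to 974.6 CPM in KO. TPPP3 rose by 3.71 at 7 days, 2.902 at 28 days and 3.06 in KO, from at most 4 counts in a WT library, and DNAH11 by 2.93 at 7 days. DNAAF1 rose by 2.22 at 28 days, and CFAP43 by 1.00 in KO. ZMYND10 and DNAH11 fell by 2.18 and 2.02 from 7 to 28 days. The axonemal dynein gene DNAI2 was at 0 counts in all 12 libraries, and DNAI1, DNAH9, SPAG6 and GMNC had at most 5 counts in any. In bulk RNA, a change in the number of cells that express such a gene and a change in the level per cell cannot be told apart.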

How the data were processed

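RNA sequencing of 12 PC9 libraries was analysed, 3 in each of 4 groups taken from the sample titles. The authors deposited 1 table of expected counts per gene, estimated read numbers with no scaling. Per the submitters' processing notes, RSEM 1.3.1, Bowtie2 2.5.2, DESeq2 1.40.2 and the build GRCh38 were used, and per the labels' protocols the libraries were stranded and polyadenylated. The annotation and the use of strand in counting are not given in the sources used here. Symbols were found for 62700 of 62754 identifiers, and coordinates are those of GENCODE 29.

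The values were rounded to whole numbers, and the main test ran in edgeR 4.0.16 under R 4.3.3 (filterByExpr by group, TMM, robust quasi-likelihood fit of all 12 libraries, Benjamini-Hochberg adjustment over 17115 genes). Standard errors are those of the log2 fold change. The fit was tested on simulated data. TPM used GENCODE 29 exon lengths. A count of 0 allows up to 3 counts, or 0.0782 to 0.117 CPM, counting error only. In each comparison, members with a full test were those called at 2-fold or more, or else the 10 called members of largest change; RFX2, RFX3 and FOXJ1 were described throughout, and 2 called genes per further list were named. One result under this rule is not reported here. The members and lists were chosen with earlier results of these data known. No p-value is given for summed levels of a list. Alternatives were total counts, upper quartile, DESeq2 1.42.0, no filter, only the compared libraries, the replicate number as a block and each library left out. Same-numbered libraries correlated weakly (18 pairs, r -0.03 to 0.18, 4 over 0.1), so the numbers were not used to pair.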

Additional observations from a re-analysis of the deposited data

Results flagged for a closer look

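The changes of 3 members against WT had opposite signs after 7 and 28 days, each past the threshold at both times. The difference (28 minus 7 days, log2) was tested with edgeR's quasi-likelihood test, Benjamini-Hochberg adjusted over all tested genes. These members were picked for opposite called changes in the same fit, so this test was all but bound to pass and adds no separate support. TCTN2 differed by 1.32 (adjusted p = 7.34e-07), from -0.62 to 0.69. RFX3 differed by 1.33 (adjusted p = 5.94e-05), from -0.49 to 0.84. MKS1 differed by 0.59 (adjusted p = 7.31e-05), from -0.25 to 0.35. The 7-day calls of RFX3 and MKS1 were lost in 10 of 12 alternatives each, and that of TCTN2 in 1.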

How the results depend on the processing

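Of the called members, 14 of 19 at 7 days, 26 of 29 at 28 days, 21 of 29 between the times and 0 of 2 in KO kept their call and direction in all 12 alternatives. The median log2 change of the members moved with scaling: with total counts alone it was 0.49 at 7 days, 0.80 at 28 days, 0.26 between the times and 0.12 in KO, and with upper quartile scaling 0.43, 0.75 and 0.27 in the first 3. Total counts alone shifted the median of all genes by 0.35, 0.17, -0.19 and 0.07 in the 4 comparisons. With 1 library left out, the medians ran from 0.08 to 0.20 at 7 days, 0.61 to 0.70 at 28 days (0.70 without WT replicate 1), 0.36 to 0.50 between the times (0.36 without DTC replicate 3) and 0.05 to 0.08 in KO, and the calls from 17 to 28 (28 without DTC replicate 1: 18 higher, 10 lower), 28 to 30, 25 to 31 and 0 to 1. KO had 4 calls with total counts alone, 5 with DESeq2 and 8 with only the compared libraries fitted. KO calls over all genes were 738 in the main analysis, 1154 with DESeq2, 1147 with no filter and 2656 with only the compared libraries. These were 4.31%, 7.02%, 3.65% and 17.5% of the genes tested, and the share was 5.01% with total counts alone. MKS1 at 7 days reversed to 0.11 (total counts) and 0.0396 (upper quartile), and FOXJ1 at 7 days to -0.23 without WT replicate 1 and -0.78 without DTC replicate 2, with 1.13 without WT replicate 2 as its highest value; the cause was not tested. With the replicate number as a block, 19, 29, 30 and 2 members were called and TDP1 in KO was -1.28; 8 of 12 libraries correlated best with a library of their own number. FOXJ1, BBS5 and KIF17 are limited by depth. Strand use in counting is not known, and expressed opposite-strand genes share 0.38% to 12.4% of the exon bases of IFT20, IFT74, IFT80, IFT122, IFT140, IFT172, BBS1, BBS2 and CEP290, where reads of both genes cannot be told apart. On the same strand, AP002748.4 shares 53.9% of the exon bases of BBS1, AC079594.2 27.2% of IFT80 and AC093899.2 21.9% of BBS5. By plain library totals these averaged 0.249, 0.999 and 0.0211 CPM. TTLL5, at 44.6 CPM, shares 2.04% of IFT43, and RHNO1, at 49.9 CPM, 1.89% of TULP3. Values were not whole in any of the 12 libraries for IFT20 and BBS5.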
